A study of Ovis aries with 6 samples.

Results

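The hair shaft differentiation transcription factors are a group of regulators that act in the bulb of the wool follicle and in the epidermis, where keratinocytes leave the cycle and harden. The members were taken by gene symbol, as MSX1, MSX2, FOXN1, FOXQ1, DLX2, DLX3, GATA3, CUX1, OVOL1 and PRDM1, and the rule used no measured value. Of these 10 genes, 9 were found by symbol among the 28394 genes listed for each sheep, and FOXQ1, whose mutation gives mice a satin coat with a disordered hair medulla, was not analysed here. Skin RNA was sequenced from 3 Super Merino (SM) sheep, a fine wool breed, and 3 Small Tail Han (STH) sheep, a coarse wool breed. All 6 were ewes housed on 1 farm, and the labels give an age of 9 months for each, whereas the methods of the study give a younger age. The skin was taken behind the shoulder blade after shaving, at a season when follicles are expected to be growing, and no treatment was applied. Each library came from 1 animal, namely SM 128, SM 30034 and SM 30126 on one side and STH XW3, STH XW5 and STH XW8 on the other.

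A growing follicle is renewed from matrix cells around the dermal papilla. As these cells move upwards they commit to the inner root sheath or to the cuticle, cortex and medulla of the fibre, under WNT, BMP and Notch signals. In mice the BMP receptor BMPR1A is needed for the expression of several of the factors described here, and these factors in turn act on hair keratin genes and on further regulators such as HOXC13. Most of them are not confined to the fibre lineage, since GATA3 also serves T cells, PRDM1 serves plasma cells and sebaceous gland, and FOXN1, OVOL1, DLX3 and PRDM1 are also found in differentiating epidermis.

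Total counts lay between 28870583 and 44645091 per sheep, which puts the floor of 3 counts at 0.0672 to 0.104 counts per 1000000 (CPM), a limit that covers counting error only. The lowest count of any of the 9 factors was 133, for DLX2 in STH sheep XW3, and the highest was 30858, for FOXN1 in SM sheep 30126. All 9 therefore passed the filter of at least 10 counts in at least 3 sheep and were among the 15320 genes tested. Epithelial markers were abundant in every library, with KRT5, a keratin of basal keratinocytes, between 4669 and 8417 CPM and KRT35, a keratin of the fibre, between 809 and 2882 CPM.

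Compared per length, as TMM-normalised CPM per kb of exon, DLX3 and FOXN1 had the highest levels of the group and DLX2 the lowest. DLX3, a distal-less homeobox factor needed for hair shaft formation, had 156 ± 44.8 CPM per kb (SD over 6 sheep), and FOXN1, the forkhead factor lost in nude mice, had 138 ± 44.8. Their ranges over the 6 sheep overlapped, although DLX3 was above FOXN1 within each single sheep. MSX2 followed with 83.0 ± 22.8, GATA3 with 59.6 ± 5.11, CUX1 with 44.9 ± 12.1, MSX1 with 35.0 ± 9.70 and OVOL1 with 29.1 ± 6.12 CPM per kb (SD, n = 6 for each). From DLX3 to OVOL1 each gene overlapped in range with the next one down. Such an overlap compares different animals and does not give the order of the genes within a sheep. Below OVOL1 was a clear step to PRDM1, with 10.6 ± 0.647 CPM per kb, and another to DLX2, with 5.01 ± 1.36, and neither range overlapped that of the gene above it. Among all tested genes DLX3 lay at percentile 97.2, MSX1 at 87.0 and DLX2 at 44.9 for this level. The level of PRDM1 rests on an exon length of 15459 bases, the longest of the group, within a gene of 23016 bases. An order taken from the RPKM deposited by the authors was identical. The exon lengths used here were derived from that same RPKM, so this order is not an independent check of the lengths.

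**Figure D1:**
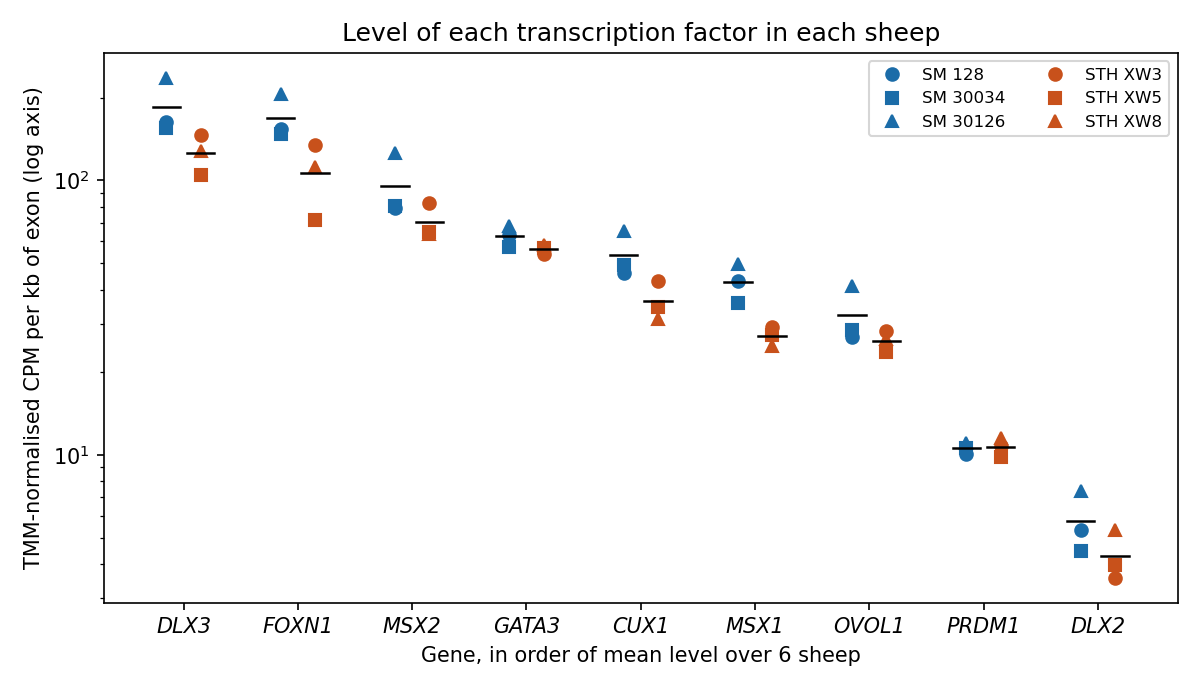
Each point is 1 sheep and each black bar the mean of a breed (n = 3), with TMM-normalised CPM per kb of exon on a log axis and the 9 genes in order of their mean over 6 sheep. The 7 genes from DLX3 to OVOL1 form an overlapping series from 156 down to 29.1 CPM per kb, while PRDM1 and DLX2 sit apart at 10.6 and 5.01.

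The comparison of the breeds asks whether skin that grows fine wool differs from skin that grows coarse wool in the regulators of fibre differentiation. Of the 9 factors, 8 had a higher mean in SM sheep and only PRDM1 did not. Over all genes tested, 51.4% had a log2 fold change of SM over STH above 0. The median log2 fold change of the 9 factors was 0.44, against 0.02 over all genes tested. Without SM sheep 30126 the median of the 9 was 0.21. None of the 9 passed both thresholds, a Benjamini-Hochberg adjusted p below 0.05 together with more than a 1.5-fold difference, in edgeR's quasi-likelihood test, and neither did any of the 15320 genes (0.0%). The paper, with its own run of the EdgeR algorithm at these thresholds, did call genes in both directions. FOXI3 and KRT36 were among those it found higher in SM sheep. At an unadjusted p under 0.05 in the quasi-likelihood test there were 4 factors, MSX1, FOXN1, DLX3 and CUX1, all higher in SM sheep. Over all genes, 7.21% had such a p and were higher in SM sheep, and 10.8% had one and were higher in STH sheep. For the same 4 factors even the lowest SM sheep exceeded the highest STH sheep, which was so for 12.3% of all genes tested, and for none of the 9 was the reverse true, against 13.3% of all genes. For each gene so separated the two-sided exact permutation p is 0.1, the smallest that 3 animals per breed allow. In RNA from whole skin, fewer cells of a type and less RNA per cell cannot be told apart. The paper measured a higher total density of wool follicles in SM skin, and the part of that density in these values was not tested.

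Among the homeobox factors, MSX1 had the smallest p of the group. MSX1 and MSX2 are muscle segment homeobox proteins, repressors that act in hair matrix and precortex cells, and loss of MSX2 in mice gives repeated loss of hair. MSX1, on chromosome 6 of Oar_v4.0 from 103758877 to 103763102 on the minus strand, measured 75.2 (SM 128), 62.6 (SM 30034) and 87.2 CPM (SM 30126) against 51.4 (STH XW3), 48.1 (STH XW5) and 43.7 CPM (STH XW8). The lowest SM sheep was thus above the highest STH sheep, with means of 75.0 ± 12.3 and 47.7 ± 3.85 CPM (SD, n = 3). MSX1 was higher in SM sheep by 0.65 on the log2 scale (standard error, SE, 0.16, unadjusted p = 0.00313, adjusted p = 0.232), a fold of 1.57. It was the only factor called by another test, with an adjusted p of 0.0398 in edgeR's likelihood ratio test and 0.0264 in DESeq2. Those tests called 0.868% and 1.02% of all genes as higher in SM sheep. Over all the alternatives its adjusted p ran from 0.0264 to 0.627.

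MSX2, on chromosome 16 from 6497353 to 6502625, measured 105 (SM 128), 107 (SM 30034) and 167 CPM (SM 30126) against 109 (STH XW3), 85.4 (STH XW5) and 84.0 CPM (STH XW8). STH sheep XW3 lay above 2 of the 3 SM sheep, and sheep 30126 lay well above the other 5. The log2 fold change of 0.44 (SE 0.21, adjusted p = 0.300) became 0.20 without that sheep.

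DLX2 and DLX3 come from different pairs of neighbouring distal-less genes. DLX3, on chromosome 11 from 36146858 to 36152406, measured 489 (SM 128), 463 (SM 30034) and 706 CPM (SM 30126) against 437 (STH XW3), 313 (STH XW5) and 382 CPM (STH XW8). The breeds did not overlap, although SM sheep 30034 and STH sheep XW3 were close together. The log2 fold change was 0.55 (SE 0.21, unadjusted p = 0.0271, adjusted p = 0.256). In the same edgeR test it was 0.35 without SM sheep 30126 (unadjusted p = 0.0700), 0.43 without STH sheep XW5 (unadjusted p = 0.101) and 0.56 without STH sheep XW8 (unadjusted p = 0.0649). DLX2, on chromosome 2 from 136593613 to 136595829, measured 6.44 (SM 128), 5.40 (SM 30034) and 8.92 CPM (SM 30126) against 4.31 (STH XW3), 4.81 (STH XW5) and 6.42 CPM (STH XW8). STH sheep XW8 lay above SM sheep 30034, and the log2 fold change was 0.42 (SE 0.27, adjusted p = 0.396), or 0.21 without SM sheep 30126. The partners DLX1 and DLX4 lie on the opposite strand, 12274 bases from DLX2 and 10390 bases from DLX3. DLX1 had a log2 fold change of 0.63 (SE 0.28, adjusted p = 0.283) with breeds that did not overlap, and DLX4 one of 0.35 (SE 0.16, adjusted p = 0.285) with breeds that did.

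FOXN1, on chromosome 11 from 19573206 to 19594811, activates keratin genes as cells of the fibre and of the epidermis begin to differentiate. It measured 588 (SM 128), 561 (SM 30034) and 786 CPM (SM 30126) against 512 (STH XW3), 274 (STH XW5) and 427 CPM (STH XW8). The breeds did not overlap, and FOXN1 had the widest spread of the group, with a highest sheep at 2.87 times the lowest. The means were 645 ± 123 and 404 ± 120 CPM (SD, n = 3), and the log2 fold change was 0.67 (SE 0.24, unadjusted p = 0.0229, adjusted p = 0.255). In the same edgeR test the value was 0.46 without STH sheep XW5, the lowest of the 6 (unadjusted p = 0.0687), 0.52 without SM sheep 30126 (unadjusted p = 0.0669) and 0.88 without STH sheep XW3.

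GATA3 and CUX1 are both linked to the inner root sheath, the mould of the growing fibre, GATA3 as a zinc finger factor of that lineage and CUX1 as a cut homeobox factor whose loss gives mice curly whiskers. CUX1, on chromosome 24 from 34575901 to 34936602 on the minus strand, measured 222 (SM 128), 238 (SM 30034) and 317 CPM (SM 30126) against 209 (STH XW3), 168 (STH XW5) and 152 CPM (STH XW8). The breeds did not overlap, with SM sheep 128 just above STH sheep XW3. The log2 fold change was 0.56 (SE 0.19, unadjusted p = 0.0172, adjusted p = 0.247). In the same edgeR test it was 0.40 without SM sheep 30126 (unadjusted p = 0.0374), 0.52 without STH sheep XW5 (unadjusted p = 0.0550) and 0.46 without STH sheep XW8 (unadjusted p = 0.0721).

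GATA3, on chromosome 13 from 12021831 to 12039570, measured 97.2 (SM 128), 88.0 (SM 30034) and 104 CPM (SM 30126) against 82.8 (STH XW3), 87.1 (STH XW5) and 89.0 CPM (STH XW8). It varied by a factor of only 1.26 over the 6 sheep, and SM sheep 30034 lay between STH sheep XW5 and XW8. The log2 fold change was 0.16 (SE 0.13, adjusted p = 0.486). Of 12 markers of T and natural killer cells, which also express GATA3, 10 were tested and 8 of these were higher in SM sheep, at a median log2 difference of 0.58. Their summed level was 56.3 to 91.0 CPM in SM and 45.5 to 64.2 CPM in STH sheep, and none was at 0. Their part in the GATA3 value was not tested.

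OVOL1 and PRDM1 are zinc finger repressors that act as keratinocytes stop dividing and mature. OVOL1, on chromosome 21 from 43108553 to 43120010, measured 26.2 (SM 128), 27.7 (SM 30034) and 39.9 CPM (SM 30126) against 27.4 (STH XW3), 23.0 (STH XW5) and 25.5 CPM (STH XW8). Apart from SM sheep 30126 the breeds were mixed, and the log2 fold change of 0.31 (SE 0.19, adjusted p = 0.384) was 0.10 without that sheep.

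PRDM1, on chromosome 8 from 30894187 to 30917202 on the minus strand, is also known as BLIMP1. It measured 156 (SM 128), 163 (SM 30034) and 171 CPM (SM 30126) against 166 (STH XW3), 151 (STH XW5) and 179 CPM (STH XW8). These were the most even values of the group, with a highest sheep at 1.18 times the lowest and with both the highest and the lowest sheep in the STH breed. The log2 fold change was -0.02 (SE 0.13, adjusted p = 0.948), and its sign was positive under several alternatives, the largest being 0.35 with the trend on exon length removed. All 9 markers of sebaceous gland, where PRDM1 is also known, were higher in SM sheep, at a median log2 difference of 0.97 and a summed level of 2217 to 3392 CPM in SM and 1431 to 1770 CPM in STH sheep. Of 10 markers of B and plasma cells, 6 were tested, 3 being higher in each breed, at a median log2 difference of -0.05. The part of these cells in the PRDM1 value was not tested.

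**Figure D2:**
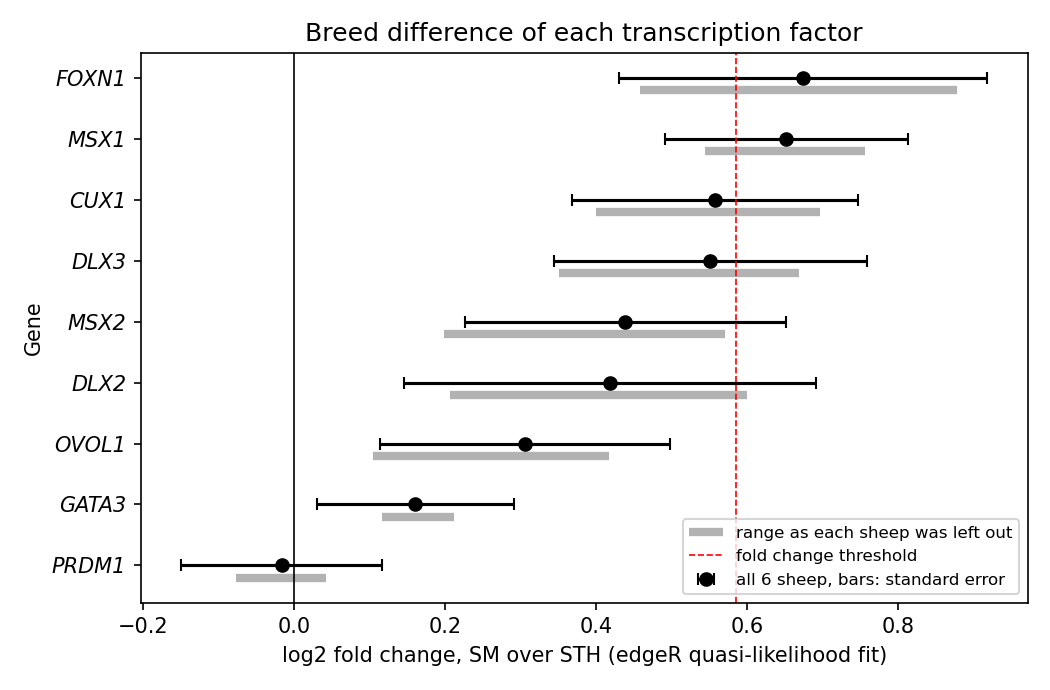
Points are log2 fold changes of SM over STH sheep from edgeR's quasi-likelihood fit, bars their standard errors, grey bands the range as each of the 6 sheep was left out, and the dashed line the threshold of 1.5-fold. Only FOXN1 and MSX1 lie beyond the threshold with all 6 sheep, at 0.67 and 0.65, and PRDM1 is the only gene whose band crosses 0.

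Most of the factors had the same highest sheep, while the lowest sheep differed between them. SM sheep 30126 had the highest value of the 6 sheep for 8 of the 9 genes, PRDM1 being the exception. STH sheep XW5 was below the mean over the 6 sheep for all 9 genes and had the lowest value for 4 of them. The lowest value was in STH sheep XW8 for 3 genes and in STH sheep XW3 for 2. As the median over the 9 genes of log2 CPM centred on the mean of the 6 sheep, the sheep lay at 0.09, 0.001 and 0.59 for SM sheep 128, 30034 and 30126, and at -0.02, -0.31 and -0.23 for STH sheep XW3, XW5 and XW8. SM sheep 30034 and STH sheep XW3 were therefore nearly level, and the distance from SM sheep 30126 to the next SM sheep was larger than the distance between the nearest sheep of the 2 breeds. The 9 genes were measured in the same libraries, so what they share is a description of these sheep and not repeated evidence of a breed difference.

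**Figure D3:**
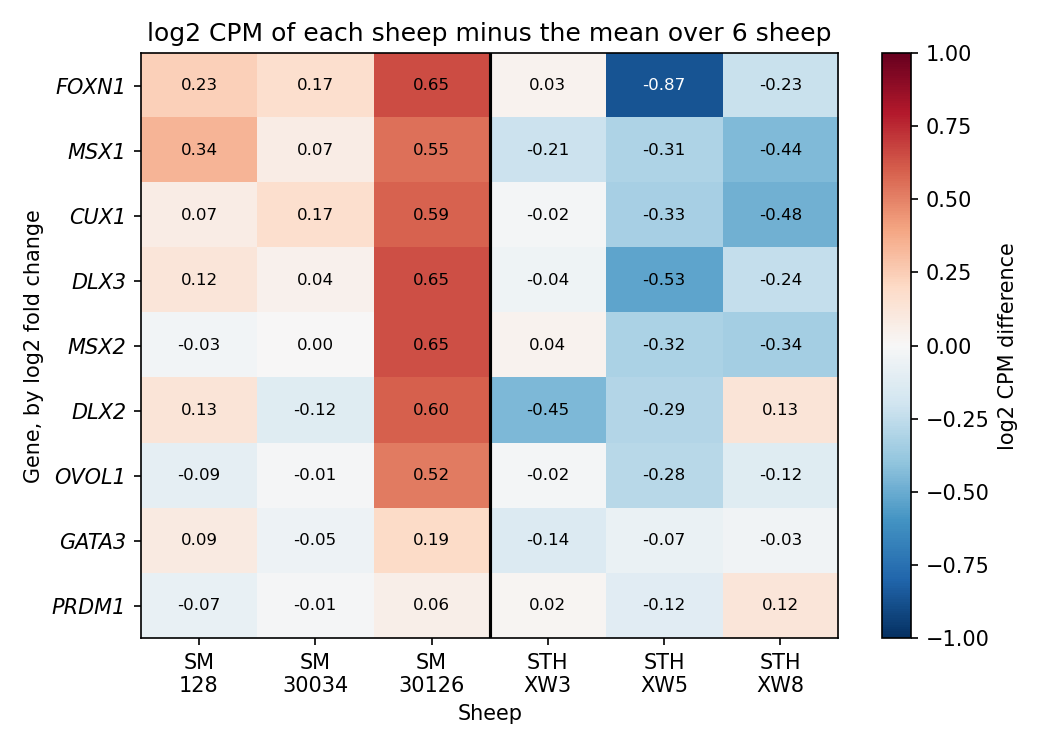
Each cell gives the log2 CPM of a gene (row) in a sheep (column) minus the mean of that gene over 6 sheep, with the breeds parted by the black line. SM sheep 30126 is red in 7 rows at 0.52 or more, FOXN1 in STH sheep XW5 is the lowest cell at -0.87, and the rows of GATA3 and PRDM1 are pale throughout.

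How alike 2 genes were over the 6 sheep was measured as the root mean square difference of their centred log2 CPM. Of the 36 pairs of factors the most alike were MSX2 and CUX1, at 0.10, MSX2 and OVOL1, at 0.11, and MSX2 and DLX3, at 0.12. The least alike were FOXN1 and PRDM1, at 0.44, and FOXN1 and GATA3, at 0.41. Among 13578 other genes, the closest to FOXN1, the factor with the highest fold change, were CENPT, GYPC and B9D1, at 0.09, 0.09 and 0.10. Those closest to PRDM1, the factor with the lowest, were SUN1, VANGL2 and FST, at 0.03, 0.04 and 0.04. The medians over all these genes were 0.53 and 0.27.

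The factors were then set against the keratins of the same libraries. Of 17 keratins of the fibre cortex and cuticle, 8 were found by symbol and all were tested. None passed the thresholds, 7 of the 8 were higher in SM sheep, 2 of these with an unadjusted p under 0.05, and the median log2 fold change was 0.49, close to the 0.44 of the factors. KRT36 measured 98.7 (SM 128), 87.5 (SM 30034) and 144 CPM (SM 30126) against 61.7 (STH XW3), 44.4 (STH XW5) and 84.2 CPM (STH XW8) (log2 fold change 0.80, SE 0.26, adjusted p = 0.247). KRT84 had a log2 fold change of 0.67 (SE 0.28, adjusted p = 0.270) and KRT35 one of 0.72 (SE 0.36, adjusted p = 0.308). Sheep 30126 was the highest and sheep XW5 the lowest for each of these 3 keratins. Without SM sheep 30126 the median of the 8 keratins was 0.15, and without STH sheep XW5 it was 0.32.

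The mean log2 CPM of the 8 fibre keratins was 8.05 ± 0.44 in SM and 7.60 ± 0.42 in STH sheep (SD, n = 3), with overlap. With this mean subtracted in each sheep, 4 factors were higher in SM and 5 in STH sheep, the median difference of breed means was -0.04 on the log2 scale, and no factor separated the breeds. Over 15122 genes with a count in every sheep the median on this scale was -0.44, and most were higher in STH sheep. For 0.562% of these genes all SM sheep lay highest, and for 14.2% all STH sheep did. FOXN1 had the highest difference, 0.25, from 1.27 ± 0.19 in SM to 1.02 ± 0.07 in STH sheep (SD, n = 3), and PRDM1 had -0.47. KRT5 behaved otherwise, with a mean log2 CPM of 12.39 ± 0.17 in SM and 12.75 ± 0.30 in STH sheep (SD, n = 3) and again with overlap. Relative to KRT5 all 9 factors were higher in SM sheep, with differences from 0.35 for PRDM1 to 1.07 for FOXN1 and a median of 0.78, and 6 of the 9 separated the breeds. Of 15130 genes, 75.9% were higher in SM sheep relative to KRT5, at a median of 0.39, and for 26.9% all SM sheep lay highest. A reference moves the difference of every gene by the same amount.

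**Figure D4:**
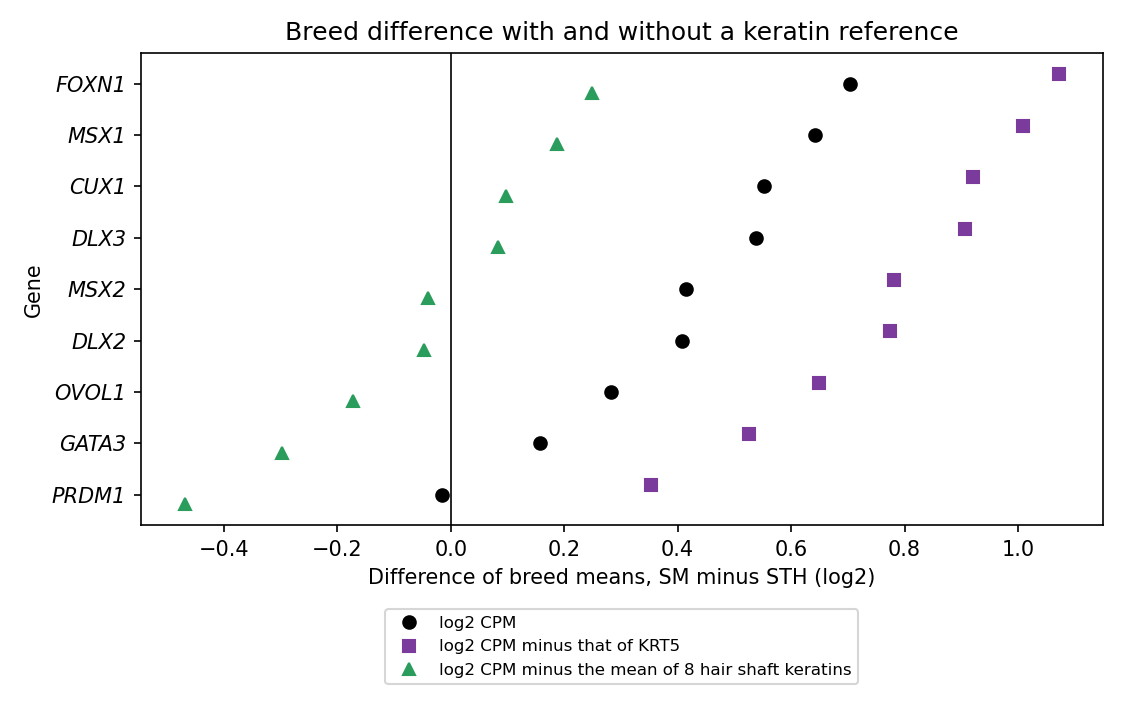
For each gene the difference of breed means, SM minus STH on the log2 scale, is given for log2 CPM (black), for log2 CPM minus that of KRT5 (violet) and for log2 CPM minus the mean of 8 hair shaft keratins (green). Relative to KRT5 all 9 genes lie above 0, from 0.35 to 1.07, whereas relative to the hair shaft keratins they lie on both sides of 0, from -0.47 to 0.25.

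The keratins of other compartments had other directions. Of the 6 inner root sheath keratins found, 5 were higher in STH sheep, at a median log2 difference of -0.19, and KRT27 had -0.52 (SE 0.17, adjusted p = 0.247) with breeds that did not overlap. Of 11 tested markers of the suprabasal epidermis, 10 were higher in STH sheep, 7 of them with an unadjusted p under 0.05, and the median was -0.77. Their summed level was 5063 to 5719 CPM in SM and 6091 to 11303 CPM in STH sheep, with none at 0. The share of the epidermis in the values of FOXN1, DLX3, OVOL1 and PRDM1 was not tested.

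Further transcription factors of follicle and epidermis gave a mixed picture. Of 28 such genes, all tested, none passed the thresholds, 18 were higher in SM sheep, 4 of them with an unadjusted p under 0.05, and 10 were higher in STH sheep, 1 with such a p, for a median log2 fold change of 0.09. FOXI3, a forkhead factor of hair placode and germ, had 1.35 (SE 0.25, adjusted p = 0.159), and CEBPB and CEBPA, leucine zipper factors of differentiating keratinocytes and sebocytes, had 0.59 (SE 0.14, adjusted p = 0.215) and 0.57 (SE 0.17, adjusted p = 0.246). NFIB, a factor of follicle stem cells, had -0.45 (SE 0.18, adjusted p = 0.266). HOXC13, a direct regulator of hair keratins that was picked after its values were seen, measured 282 (SM 128), 340 (SM 30034) and 559 CPM (SM 30126) against 336 (STH XW3), 261 (STH XW5) and 277 CPM (STH XW8). The breeds overlapped for HOXC13 and sheep 30126 was again the highest (log2 fold change 0.43, SE 0.25, adjusted p = 0.352).

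Relatives of the factors by family showed no common direction. Of 16 listed DLX, CUX, GATA, OVOL, FOXN and PRDM genes 13 had enough counts, 6 were higher in SM and 7 in STH sheep, none had an unadjusted p under 0.05, and the median log2 fold change was -0.10. PRDM16 had -0.67 (SE 0.31, adjusted p = 0.286), with 1.85 ± 0.321 CPM in SM and 2.94 ± 0.440 CPM in STH sheep (SD, n = 3).

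Among 26 tested genes of the BMP, WNT and Notch signals that act on the follicle bulb, none passed the thresholds, 19 were higher in SM sheep, 4 with an unadjusted p under 0.05, and 7 were higher in STH sheep, 2 with such a p. The median log2 fold change was 0.21. WNT5A, a ligand of dermal papilla and inner root sheath, had 0.53 (SE 0.16, adjusted p = 0.247), WNT3A 0.74 (SE 0.30, adjusted p = 0.262) and the BMP target ID1 0.44 (SE 0.17, adjusted p = 0.260). The receptor BMPR1A had the opposite sign. It measured 115 (SM 128), 77.7 (SM 30034) and 49.9 CPM (SM 30126) against 135 (STH XW3), 159 (STH XW5) and 120 CPM (STH XW8). The breeds did not overlap, but SM sheep 128 was nearer to them than to SM sheep 30126 (log2 fold change -0.77, SE 0.28, adjusted p = 0.255).

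Markers of cells other than keratinocytes had log2 fold changes in both directions, none past the thresholds, and their part in the values of the 9 factors was not tested. All 7 tested smooth muscle markers were higher in STH sheep, with a summed level of 1205 to 1431 CPM in SM and 1863 to 2355 CPM in STH sheep. All 5 tested endothelial markers were higher in SM sheep, at 519 to 661 against 329 to 542 CPM in sum. Of the dermal papilla markers 9 were tested, 6 being higher in SM sheep, at a median log2 difference of 0.19. The medians for the fibroblast, myeloid, melanocyte, adipocyte and skeletal muscle markers were -0.18, -0.02, 0.18, -0.37 and -0.75. For the basal keratinocyte markers, given beside them, the median was -0.18. None of the markers found was at 0 in all 6 sheep.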

How the data were processed

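PolyA RNA from the skin of 3 SM and 3 STH ewes gave 6 paired-end libraries. Read quality was checked by the authors in FastQC, and mapping to Oar_v4.0 used CLC Genomics Workbench, whose counted fragments the authors class as exonic, exon-exon, intronic, intergenic or non-specific. The total count deposited for each gene is a raw whole number. The RPKM deposited by the authors served for exon lengths, which came out as whole numbers within 0.01 bases (relaxed in proportion for the longest genes) in all sheep, and for an alternative order of levels. The TPM deposited by the authors, and a score that they head CPM, were not used.

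A gene entered the test when 3 or more sheep had 10 or more counts. Tests were run in edgeR 4.0.16 (R 4.3.3) with TMM normalization, estimateDisp, glmQLFit and glmQLFTest, with breed as the only term, with Benjamini-Hochberg adjustment over every gene tested. The standard error is the log2 fold change divided by the square root of F. CPM values are TMM-normalised. Groups follow the breed labels, and p values measure the spread between these animals. The members and the gene lists were chosen with earlier results of these data known. All members are named, with up to 4 genes of smallest p from each list of regulators or keratins and the 3 genes most like the extreme members. KRT5 is named as the most abundant basal marker, and KRT14, planned beside KRT5 as reference, was not analysed here. The fits were tried on simulated counts with planted changes larger than those of the factors. Power at the size seen in the factors was not tested. Alternatives were the likelihood ratio test, DESeq2 1.42.0, upper quartile and RLE normalization, no filter or 1 CPM in 3 sheep, a loess trend on exon length (span 0.5), and each sheep left out. No sequences of these genes were used here.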

Additional observations from a re-analysis of the deposited data

How the results depend on the processing

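No paired analysis was possible because the sheep carry individual numbers that are not shared between the breeds. Over 13 alternative settings the log2 fold change kept its direction and its side of the thresholds in 111 of 117 cases over the 9 factors. Direction changed in 4 cases, all for PRDM1. Outside the likelihood ratio test, DESeq2 and the fit without SM sheep 128, few or no genes were called. A factor staying uncalled there therefore says little. MSX1 passed both thresholds in the likelihood ratio test and in DESeq2, at 0.65 in each, so that 1 factor was called by each of these tests. At an unadjusted p under 0.05 without a fold threshold there were 4. PRDM1 reversed to 0.016 with upper quartile normalization, to 0.35 with the length trend removed, and lay from -0.077 to 0.042 with single sheep removed; the cause was not tested. The median of the factors ran from 0.21 (without SM sheep 30126) to 0.57 with single sheep removed, and then 4 to 6 factors had all SM sheep above all STH sheep, as did 15.1% to 24.6% of all genes. The 4 factors with an unadjusted p under 0.05 were the same genes under all alternatives that used 6 sheep. Without single sheep, a count chosen after seeing the data, there were between 1 and 5, with MSX1 alone without STH sheep XW5 (3.13% of all genes), 2 without SM sheep 30126 (4.84%) or STH sheep XW8 (4.8%), and 5 without SM sheep 128 (12.7%) or STH sheep XW3 (5.96%). The median of the fibre keratins, also added after seeing the data, ran from 0.15 to 0.72. Counts over all genes depended on the test, with 133 higher in SM and 219 in STH sheep by the likelihood ratio test, 156 and 283 by DESeq2, 1 and 1 without a filter, and 2 and 6 with the length trend removed. With single sheep removed they ran from 0 to 203 and from 0 to 972, the highest being without SM sheep 128. Limits set by depth were not tested by down-sampling.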
